A study of Homo sapiens with 24 samples.

Results

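The lipid-sensing module examined here comprised 10 genes of the 61860 gene identifiers in each count table, namely PPARA, PPARD, PPARG, RXRA, NR1H2, NR1H3, PPARGC1B, ESRRA, ANGPTL4 and PDK4. Each gene was chosen by its symbol, and each symbol matched 1 Ensembl identifier. The transcriptome of OE33, a human esophageal adenocarcinoma (EAC) cell line, was sequenced in 4 experiments of 6 libraries each, 24 libraries in all, and each treated group of 3 was compared with its own control group of 3. In the first experiment, male BALB/c-nu nude mice bought at 4 weeks of age were fed for 8 weeks on either high-fat chow (the HFD group) or standard chow (the ND group). OE33 cells were then injected under the skin, each diet was continued, and the xenografts were taken after 21 days. In the remaining experiments, cultured OE33 cells received HA-TRIM15 or empty vector (EV) for 48 h, a short hairpin against YY2 (shYY2) or its shControl for 72 h, and a short hairpin against FOXRED1 (shFOXRED1) or its shControl for 72 h. The 2 knockdown experiments had separate shControl libraries. Nude mice lack mature T cells, all 4 experiments used 1 cell line, and which hairpin of each pair was sequenced was not stated, so the knockdown groups stand for 1 unspecified hairpin or mixture.

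PPARs and LXRs are nuclear receptors that bind DNA as partners of RXR and switch genes on when a lipid occupies them. PPARs respond to fatty acids and their derivatives and LXRs respond to oxidized cholesterol. Coactivators of the PGC-1 family dock on these receptors and on the orphan receptor ERRα, and drive genes of mitochondrial respiration and fatty acid oxidation. ANGPTL4, a secreted inhibitor of lipoprotein lipase, and PDK4, a mitochondrial kinase that switches off pyruvate dehydrogenase, are standard readouts of PPAR and ERR activity.

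Among the receptors, PPARA (PPARα, ENSG00000186951, chr22:46150521-46243756, plus strand) governs fatty acid oxidation, PPARD (PPARδ, ENSG00000112033, chr6:35342558-35428191, plus strand) is broadly expressed, and PPARG (PPARγ, ENSG00000132170, chr3:12287368-12434356, plus strand) directs lipid storage. RXRA (RXRα, ENSG00000186350, chr9:134317098-134440585, plus strand) is the shared partner of the PPARs and LXRs. The LXRs are NR1H2 (LXRβ, ENSG00000131408, chr19:50329653-50382982, plus strand) and NR1H3 (LXRα, ENSG00000025434, chr11:47248300-47269032, plus strand). PPARGC1B (PGC-1β, ENSG00000155846, chr5:149730298-149855022, plus strand) is the coactivator and ESRRA (ERRα, ENSG00000173153, chr11:64305572-64316743, plus strand) its receptor partner. The readouts are ANGPTL4 (ENSG00000167772, chr19:8363289-8374373, plus strand) and PDK4 (ENSG00000004799, chr7:95583499-95596491, minus strand). Coordinates refer to GRCh38 with the GENCODE 29 annotation. Exons of TRMT112 on the opposite strand covered 9.37% of the ESRRA exons and exons of ACP2 on the opposite strand covered 4.17% of the NR1H3 exons. Whether reads were counted by strand could not be settled, so the counts of ESRRA and NR1H3 may include reads of these neighbours.

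The promoters of PDK4 and PPARA, the genes that rose most after YY2 knockdown, are shown with 1 promoter of NR1H3 and 1 of PPARG, the only members whose promoters held a searched motif. Each runs from 250 bases before to 50 bases after a RefSeq start site (GRCh38.p14), is written in the direction of the gene, and has any matched motif in capitals.
PDK4, chr7:95596467-95596766, minus strand: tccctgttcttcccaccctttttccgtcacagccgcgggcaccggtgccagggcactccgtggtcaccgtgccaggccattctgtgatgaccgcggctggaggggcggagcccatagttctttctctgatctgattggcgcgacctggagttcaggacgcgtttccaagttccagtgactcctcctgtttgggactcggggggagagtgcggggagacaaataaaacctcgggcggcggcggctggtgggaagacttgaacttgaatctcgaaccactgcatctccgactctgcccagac
PPARA, chr22:46150276-46150575, plus strand: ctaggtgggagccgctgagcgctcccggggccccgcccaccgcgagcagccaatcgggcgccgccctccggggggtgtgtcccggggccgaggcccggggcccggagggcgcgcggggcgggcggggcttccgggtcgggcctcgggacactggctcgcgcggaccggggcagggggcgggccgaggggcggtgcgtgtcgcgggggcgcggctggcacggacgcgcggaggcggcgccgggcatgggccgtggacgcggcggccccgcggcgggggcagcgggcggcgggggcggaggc
NR1H3, chr11:47248645-47248944, plus strand: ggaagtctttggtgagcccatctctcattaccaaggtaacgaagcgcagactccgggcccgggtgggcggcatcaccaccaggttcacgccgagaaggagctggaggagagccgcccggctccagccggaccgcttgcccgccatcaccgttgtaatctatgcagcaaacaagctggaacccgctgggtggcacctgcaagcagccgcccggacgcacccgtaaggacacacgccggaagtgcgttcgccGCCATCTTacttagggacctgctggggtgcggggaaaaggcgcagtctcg
PPARG, chr3:12287118-12287417, plus strand: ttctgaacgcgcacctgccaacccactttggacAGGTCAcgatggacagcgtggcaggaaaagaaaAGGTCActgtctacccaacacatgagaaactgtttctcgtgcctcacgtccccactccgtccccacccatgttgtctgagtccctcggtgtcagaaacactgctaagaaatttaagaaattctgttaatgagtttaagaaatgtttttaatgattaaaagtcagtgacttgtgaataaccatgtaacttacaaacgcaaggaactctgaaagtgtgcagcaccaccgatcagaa
The receptor half-site AGGTCA was searched on both strands and was present in 4 of the 20 promoters listed for the 10 genes, compared to 13.8% of all 35116 promoters. It lay in promoters of PPARG and NR1H3, or 2 of the 10 genes, compared to 16.5% of all genes with a promoter listed. The PPARG promoters that start at 12288810 and 12288820 overlap and held the same site. The NR1H3 promoter shown carried the core of the YY factors (AANATGGC) on the opposite strand, as GCCATCTT from the first transcribed base, and 6.58% of all promoters held that core. Neither the PDK4 nor the PPARA promoter shown held any of these letters. The ERR element TCAAGGTCA, which contains the half-site, was present in 0 of the 20 promoters and in 0.353% of all. The spaced repeats DR1 (AGGTCANAGGTCA, the PPAR type) and DR4 (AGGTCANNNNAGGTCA, the LXR type), which also contain the half-site, were present in 0 of the 20 promoters and in 0.0228% and 0.0199% of all promoters. The PPARA promoter shown was 85.7% G or C, compared to a median of 58.7% over all promoters.

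The libraries held 14299807 to 45994561 counts, and the count of a member in a library ranged from 86 to 8651, so all 10 genes passed the filter on low counts in every experiment. The manipulated genes followed the labels. The HA-TRIM15 libraries held 111, 130 and 181 counts of TRIM15, which can include reads from the vector, against 0 in each EV library. YY2 had 11, 12 and 11 counts after shYY2 and 43, 40 and 46 in its shControl, and these counts may be shared with the closely related YY1. FOXRED1 had 183, 207 and 129 counts after shFOXRED1 and 322, 259 and 254 in its shControl. In the xenografts, TRIM15 had 14, 12 and 24 counts under HFD and 1, 0 and 0 under ND. All libraries were rich in the 8 epithelial markers, whose sum was 10956 to 16374 CPM (counts scaled to library size). Markers of other cell types were low: the 6 adipocyte markers summed to 0.325 to 4.02 CPM in cultures and 0.63 to 1.04 CPM in xenografts, the 8 macrophage markers to 2.08 to 10.9 CPM and 4.65 to 6.06 CPM, and the 5 endothelial markers to at most 0.958 CPM and 0.577 CPM. The 7 fibroblast markers summed to 10.5 to 43.9 CPM in cultures and 23.7 to 33.5 CPM in xenografts, nearly all of it from COL1A1. ADIPOQ was at 0 in every xenograft library. How mouse reads from the host were handled was not stated, and in bulk RNA fewer cells of a type and less RNA per cell cannot be told apart.

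The length-scaled levels (CPM per kilobase of exon) placed ESRRA and PPARD at the top of the 10 genes in 7 of the 8 groups. In the ND xenografts, ESRRA stood at 53.5 ± 3.07, PPARD at 34.5 ± 1.34 and PDK4 at 29.6 ± 0.95 (SD, n = 3 here and below). In the EV cultures, ESRRA stood at 43.2 ± 0.474 and PPARD at 34.6 ± 0.491, whereas PDK4 was only 3.65 ± 0.206. PPARG was the more abundant of PPARG and PPARA in every group, with 14.6 ± 0.232 against 3.99 ± 0.0755 in the YY2 shControl. PPARGC1B and NR1H3 were the lowest in 7 of the 8 groups, the exception being shFOXRED1, in which ANGPTL4 lay between them at 3.04 ± 0.584 and overlapped NR1H3 at 3.07 ± 0.163. In the shYY2 libraries the order changed, and PDK4 was the most abundant of the 10 genes at 69.6 ± 0.916, above ESRRA at 36.7 ± 1.72 in every library. PPARA ranked 7th of 10 in that group at 13.2 ± 0.194, compared to 8th in its shControl.

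To see how far each manipulation reached into this module, members called at an adjusted p under 0.05 were counted beside the share of all genes called in the same direction. After YY2 knockdown 6 of the 10 genes rose (PDK4, PPARA, NR1H3, RXRA, PPARG and NR1H2), where 36.8% of all genes rose, and 3 fell (PPARGC1B, PPARD and ESRRA), where 38.1% of all genes fell. The shYY2 and shControl libraries did not overlap for any of the 10 genes, and 76.3% of all genes showed such separation. In HFD xenografts 5 genes rose (PPARD, PPARG, ANGPTL4, PPARGC1B and PDK4), against 25.6% of all genes, and 2 fell (NR1H3 and ESRRA), against 23.9%. HFD and ND libraries were fully separated for 7 of the 10, compared to 56.2% of all genes. After FOXRED1 knockdown 4 genes rose (ESRRA, NR1H2, NR1H3 and RXRA), against 16.8% of all genes, and 1 fell (PPARG), against 19.7%. With the replicate number as a block, which pairs these libraries, the same 4 rose, against 20.1% of all genes, and 3 fell (PPARG, PPARD and PPARA), against 23.1%. Treated and control libraries were fully separated for 6 of the 10, compared to 46.7% of all genes. HA-TRIM15 raised 2 genes (PDK4 and PPARA), against 12.5%, and lowered 1 (RXRA), against 9.53%, with full separation for 4 of the 10, compared to 37.7% of all genes. The median log2 fold change of the 10 genes was 0.38 after shYY2, 0.03 under HFD, -0.09 after shFOXRED1 and -0.06 after HA-TRIM15, while that of all genes tested lay between -0.01 and 0.01 in each experiment. Many of these shares lay near the background, so the description that follows rests on the size of the single changes.

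**Figure D1:**
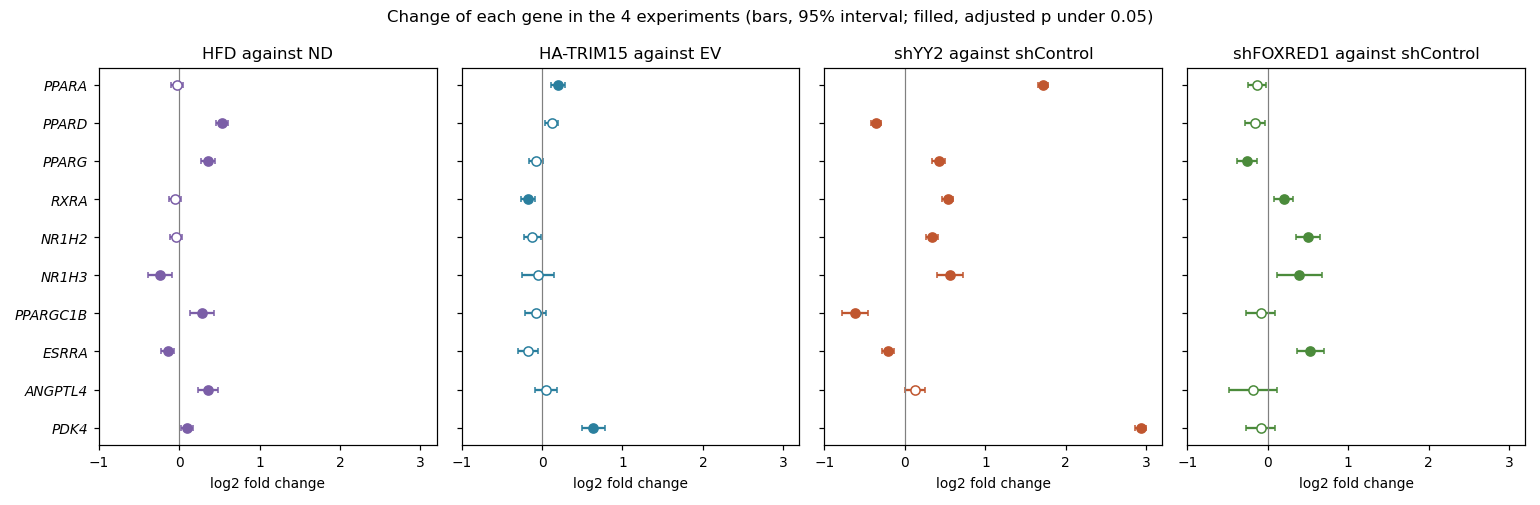
Log2 fold change of each gene (treated against own control) in the 4 experiments, with bars showing the 95% interval. Filled points passed an adjusted p under 0.05. The rises of PDK4 (2.93) and PPARA (1.72) after shYY2 are the largest of the 40 changes.

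PPARA responded above all to YY2 knockdown. Its level was 176, 175 and 171 CPM in the shYY2 libraries and 51.7, 52.9 and 53.7 CPM in the shControl libraries. Every shYY2 library stood far above every control, a 3.3-fold rise (log2 fold change 1.72, SE 0.0327, adjusted p = 7.05e-16). HA-TRIM15 raised the gene slightly, from 42.9, 41.1 and 41.5 CPM to 48.7, 47.7 and 47.6 CPM (0.20, SE 0.0435, adjusted p = 0.00451). The shFOXRED1 libraries, at 120, 125 and 135 CPM, lay below the shControl libraries at 138, 137 and 141 CPM without overlap. This difference of -0.13 (SE 0.0584) missed the threshold (adjusted p = 0.0841), but passed it with the replicate number as a block (-0.14, adjusted p = 0.0145) and without shFOXRED1 replicate 3 (-0.182, adjusted p = 0.00276). Diet left PPARA at 85, 85.5 and 83.3 CPM under HFD compared to 87.8, 88.2 and 83.1 CPM under ND, and the interval of the difference, -0.11 to 0.04 on the log2 scale (95% interval), leaves room for a small change only.

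PPARD moved in the opposite direction to PPARA after YY2 knockdown and was the member with the largest response to diet. Under HFD it stood at 222, 219 and 227 CPM, all above the ND xenografts at 153, 160 and 148 CPM. This was a 1.45-fold rise (0.53, SE 0.0371, adjusted p = 6.22e-09). After shYY2 it fell to 130, 133 and 134 CPM from 171, 168 and 168 CPM (-0.36, SE 0.0294, adjusted p = 1.85e-08). The shFOXRED1 libraries had 185, 195 and 164 CPM, of which the highest overlapped the shControl libraries at 211, 204 and 193 CPM. That difference was -0.16 (SE 0.0637, adjusted p = 0.0617), and it passed the threshold with the replicate block (-0.16, adjusted p = 0.00246), without the filter on low counts (-0.162, adjusted p = 0.0376), with DESeq2 (-0.171, adjusted p = 0.0394) and without shFOXRED1 replicate 2 (-0.213, adjusted p = 0.0318). With HA-TRIM15 the libraries, at 179, 162 and 160 CPM, lay above EV at 155, 152 and 156 CPM, but the difference of 0.12 (SE 0.0423) did not pass (adjusted p = 0.0647). It passed with the replicate block (0.112, adjusted p = 0.0484) and without HA-TRIM15 replicate 3 (0.147, adjusted p = 0.0221).

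PPARG, the storage receptor, rose by similar amounts under HFD and after shYY2. The HFD xenografts had 90.3, 83.2 and 86.9 CPM and the ND xenografts 68.7, 65.5 and 70.2 CPM, a 1.28-fold rise (0.36, SE 0.0421, adjusted p = 3.02e-06). The shYY2 libraries had 92.4, 89.2 and 84.1 CPM and their shControl 66.9, 67 and 65.1 CPM, a 1.33-fold rise (0.42, SE 0.0397, adjusted p = 1.03e-07). After shFOXRED1 it fell instead, from 125, 131 and 122 CPM to 98.2, 107 and 112 CPM, without overlap (-0.26, SE 0.0621, adjusted p = 0.00339). The HA-TRIM15 libraries, at 78.3, 80.2 and 86.7 CPM, overlapped EV at 85.7, 88.7 and 82.9 CPM, and the interval of the difference ran from -0.16 to 0.02.

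RXRA, the DNA-binding partner of the PPARs and LXRs, rose in both knockdowns. After shYY2 it increased from 122, 121 and 112 CPM to 175, 167 and 172 CPM, a 1.45-fold rise with no overlap (0.53, SE 0.0362, adjusted p = 1.59e-09). After shFOXRED1 it increased from 189, 185 and 177 CPM to 219, 220 and 192 CPM (0.20, SE 0.0598, adjusted p = 0.0145). The third shFOXRED1 library stood only just above the controls, and the call was lost without shControl replicate 2 (0.202, adjusted p = 0.0522), shControl replicate 3 (0.173, 0.0748), shFOXRED1 replicate 1 (0.172, 0.0661) or shFOXRED1 replicate 2 (0.166, 0.0875). With HA-TRIM15 it fell from 118, 116 and 119 CPM to 112, 101 and 98.9 CPM (-0.17, SE 0.0452, adjusted p = 0.0138), a call lost without EV replicate 3 (-0.168, adjusted p = 0.0601) or HA-TRIM15 replicate 2 (-0.148, adjusted p = 0.0657). The HFD and ND xenografts overlapped, at 158 to 162 CPM and 160 to 171 CPM.

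Both LXR genes rose in both knockdowns. NR1H2 had 64.4, 62.7 and 62.5 CPM after shYY2 and 49.7, 50.4 and 50.1 CPM in its shControl, a 1.26-fold rise (0.34, SE 0.0379, adjusted p = 7.33e-07). After shFOXRED1 it had 64, 58.6 and 52.9 CPM compared to 40, 43.9 and 40.4 CPM, a 1.42-fold rise (0.50, SE 0.0787, adjusted p = 8.48e-05). Neither comparison overlapped. In the xenografts NR1H2 was level within the replicate spread, at 67.4 to 70.1 CPM under HFD and 69.5 to 73 CPM under ND (interval -0.12 to 0.03). HA-TRIM15 gave 52, 49.2 and 44.2 CPM against 54.8, 50.6 and 52.7 CPM with EV (-0.12, adjusted p = 0.16), which passed the threshold only without HA-TRIM15 replicate 1 (-0.174, adjusted p = 0.0123).

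NR1H3 was the least abundant receptor, with 119 to 679 counts per library, and its calls were the least stable. It rose 1.47-fold after shYY2, from 10, 11 and 10.7 CPM to 14.5, 16.8 and 15.4 CPM (0.56, SE 0.0841, adjusted p = 1.99e-05), and this call held without any one library. After shFOXRED1 it rose from 12.8, 10.8 and 8.09 CPM to 14.5, 14.2 and 13.1 CPM (0.39, SE 0.142, adjusted p = 0.0391). The shControl libraries were widely spread, and the call was lost without shControl replicate 2 (0.404, adjusted p = 0.0844), shControl replicate 3 (0.234, 0.199), shFOXRED1 replicate 1 (0.364, 0.1) or shFOXRED1 replicate 2 (0.378, 0.0916), and with DESeq2 (0.380, adjusted p = 0.0851). Under HFD it fell from 14.6, 14.2 and 13 CPM to 11.1, 12.6 and 11.9 CPM (-0.24, SE 0.076, adjusted p = 0.0158), a call lost without HFD replicate 1 (-0.193, 0.078), ND replicate 1 (-0.204, 0.0693) or ND replicate 2 (-0.220, 0.0525) and with DESeq2 (-0.222, 0.09). With HA-TRIM15 it had 10.3, 7.93 and 9.48 CPM compared to 9.77, 9.67 and 9.48 CPM with EV, a difference of -0.05 (adjusted p = 0.782) that turned to 0.046 without HA-TRIM15 replicate 2.

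PPARGC1B, the coactivator, fell most of all members after YY2 knockdown. It went from 22.5, 18.4 and 20.4 CPM to 13.9, 12.8 and 13.3 CPM, a 1.53-fold fall (-0.62, SE 0.0817, adjusted p = 4.63e-06). Under HFD it rose 1.22-fold, from 13.6, 14.3 and 12.9 CPM to 17.8, 15 and 16.8 CPM (0.28, SE 0.0757, adjusted p = 0.00544). Neither pair of groups overlapped. HA-TRIM15 (22.8, 22.9 and 22.9 CPM against 26.5, 22.8 and 23.2 CPM with EV) and shFOXRED1 (30.1, 30 and 26.2 CPM against 28.8, 29.9 and 33.6 CPM) gave overlapping groups, with intervals of -0.21 to 0.05 and -0.27 to 0.08.

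ESRRA, the orphan receptor that works with PGC-1, went in opposite directions in the 2 knockdowns. After shFOXRED1 it rose 1.44-fold, from 136, 134 and 120 CPM to 203, 203 and 156 CPM (0.53, SE 0.0838, adjusted p = 9.35e-05), although the third shFOXRED1 library was much lower than the other two. After shYY2 it fell from 127, 131 and 128 CPM to 111, 116 and 106 CPM (-0.21, SE 0.0358, adjusted p = 5.79e-05). Under HFD it was 150, 149 and 144 CPM compared to 155, 173 and 159 CPM, a small fall (-0.14, SE 0.042, adjusted p = 0.011) that was lost without HFD replicate 3 (-0.118, adjusted p = 0.0692). With HA-TRIM15 the first library stood at 133 CPM, above the EV libraries at 132, 131 and 130 CPM, while the others stood at 109 and 106 CPM. The difference of -0.17 (SE 0.0635) did not pass (adjusted p = 0.0743), but did so without that library (-0.286, adjusted p = 1.44e-06), without the filter on low counts (-0.179, adjusted p = 0.000189) and with the replicate block (-0.177, adjusted p = 0.0148). It did not pass with DESeq2 (-0.175, adjusted p = 0.254) or with DESeq2 size factors (-0.168, adjusted p = 0.0649). Nor did it pass in any fit that left out another library (adjusted p = 0.134 to 0.258).

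PDK4, the kinase that closes the pyruvate dehydrogenase gate, showed the largest change of the module. The shYY2 libraries had 5104, 5316 and 5804 counts, or 311, 319 and 314 CPM, and the shControl libraries 759, 690 and 827 counts, or 41.7, 40.8 and 41.7 CPM. No control library came near the shYY2 libraries, and the rise was 7.6-fold (2.93, SE 0.0328, adjusted p = 6.83e-18). HA-TRIM15 also raised PDK4, from 16.9, 17.2 and 15.4 CPM to 23.7, 26.1 and 27.6 CPM, with no overlap and a 1.56-fold rise (0.64, SE 0.0736, adjusted p = 2.38e-05). Under HFD the rise was 1.07-fold, from 139, 133 and 131 CPM to 141, 151 and 139 CPM (0.10, SE 0.0397, adjusted p = 0.0462). The lowest HFD and highest ND libraries nearly coincided, and the call was lost without HFD replicate 1 (0.116, adjusted p = 0.0639), HFD replicate 2 (0.071, 0.194), ND replicate 2 (0.093, 0.0755) or ND replicate 3 (0.091, 0.105). After shFOXRED1 the libraries overlapped, at 23.6, 25.4 and 28.9 CPM against 26.2, 27.3 and 29 CPM (interval -0.27 to 0.10). PDK4 was thus raised after YY2 knockdown with no change detected after FOXRED1 knockdown, a difference tested below.

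ANGPTL4, the lipoprotein lipase inhibitor, was called in 1 experiment. The HFD xenografts had 33.1, 35.1 and 32.8 CPM and the ND xenografts 25.2, 28.8 and 23.7 CPM, a 1.28-fold rise with no overlap (0.36, SE 0.0651, adjusted p = 0.000258). After shYY2 it had 23, 20.9 and 21.7 CPM compared to 20.6, 19.8 and 19.7 CPM, a difference of 0.13 without overlap that did not pass (SE 0.0627, adjusted p = 0.0825). HA-TRIM15 gave 24.5, 20.6 and 22.4 CPM against 21.6, 21.1 and 22.9 CPM with EV, and its difference of 0.05 turned to -0.028 without HA-TRIM15 replicate 1. In the FOXRED1 experiment the gene was scarce, with 86 to 158 counts per library, and the interval of the difference was wide, -0.48 to 0.12. PDK4 thus gave its largest rise after shYY2, where ANGPTL4 was not called, and ANGPTL4 gave its only called rise under HFD.

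**Figure D2:**
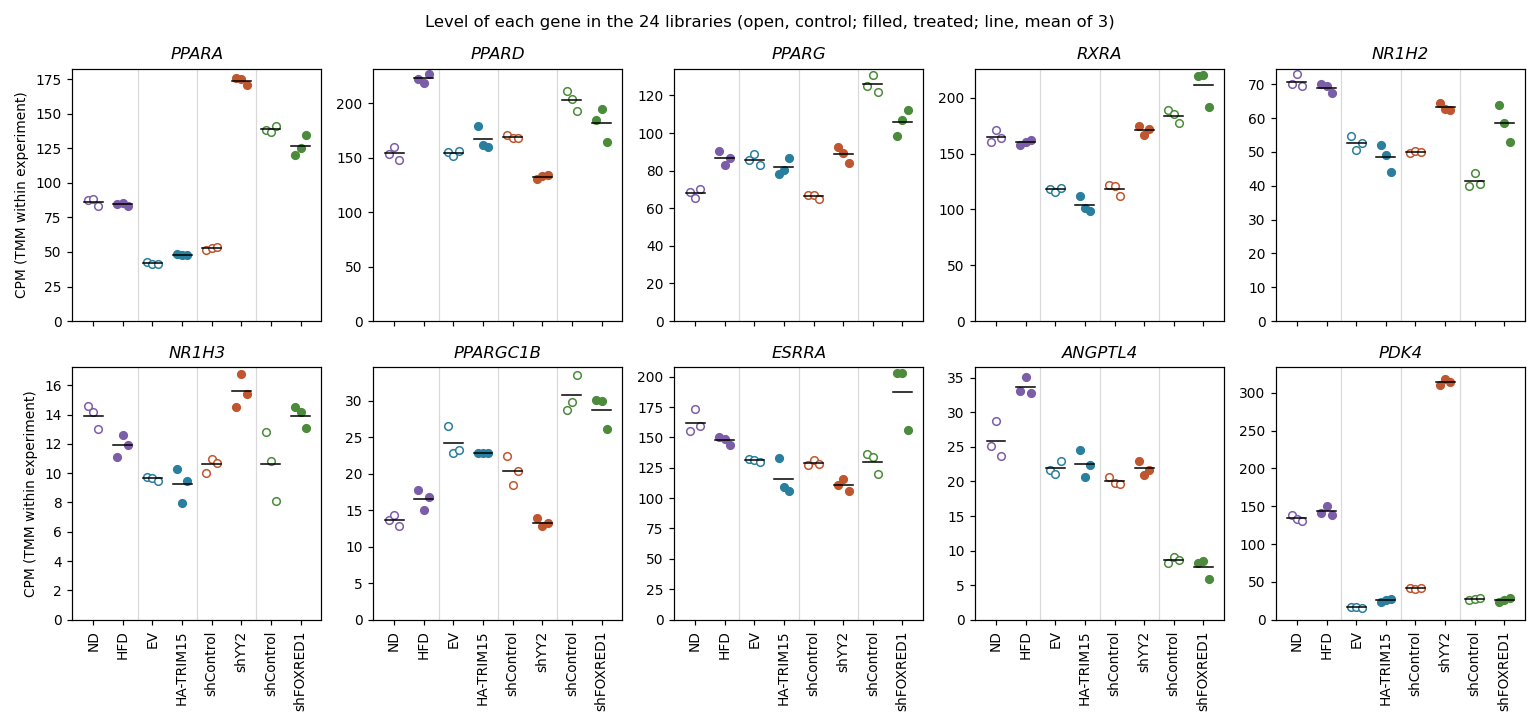
CPM of each gene in every library (y axis from 0, scaled within each experiment by TMM), with open points for control and filled points for treated libraries and a line at the mean of 3. PDK4 and PPARA in the shYY2 libraries stand far above their shControl, and ANGPTL4 lies below 10 CPM in every library of the FOXRED1 experiment.

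Since YY2 knockdown also lowered FOXRED1 itself (from 33.6, 32.1 and 32.6 CPM to 19, 16.1 and 17.9 CPM, log2 fold change -0.89, adjusted p = 3.31e-09), the effects of the 2 knockdowns were set against each other in a test of their difference. Of the 10 genes, 7 differed at an adjusted p under 0.05, where 54.4% of all genes did. The effect of shYY2 exceeded that of shFOXRED1 by 3.01 on the log2 scale for PDK4 (SE 0.0861, adjusted p = 8.56e-17), by 1.86 for PPARA (SE 0.066), by 0.67 for PPARG (SE 0.0751) and by 0.33 for RXRA (SE 0.0738, adjusted p = 0.000597). For PPARA and PPARG the adjusted p was 1.78e-15 and 1.12e-07. In the other direction, the difference was -0.74 for ESRRA (SE 0.105, adjusted p = 3.17e-06), -0.53 for PPARGC1B (SE 0.126, adjusted p = 0.00121) and -0.20 for PPARD (SE 0.0744, adjusted p = 0.0283). The PPARD difference missed the threshold in 6 of the 12 fits that left out a library, with values of -0.139 to -0.198. For the LXR genes the difference between the effects did not pass, with intervals of -0.34 to 0.01 for NR1H2 and -0.17 to 0.50 for NR1H3, which leave room for a difference of modest size. The NR1H2 difference passed without shFOXRED1 replicate 3 (-0.236, adjusted p = 0.00852). ANGPTL4 gave 0.30 (SE 0.153, adjusted p = 0.105), which became 0.400 and passed without shFOXRED1 replicate 2 (adjusted p = 0.0411) and was 0.157 without shFOXRED1 replicate 3. The 2 experiments did not start alike: mean PPARA was 52.8 CPM in the YY2 shControl and 139 CPM in the FOXRED1 shControl. Mean FOXRED1 was 17.4 CPM in the FOXRED1 shControl and 17.7 CPM after shYY2. YY2 fell 3.53-fold after shYY2 and FOXRED1 fell 1.72-fold after shFOXRED1. Target, baseline, depth of knockdown and experiment cannot be told apart in these differences.

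The effects of diet and of HA-TRIM15 were compared in the same way, since TRIM15 counts were higher in the HFD xenografts. Again 7 of the 10 genes differed, where 35.2% of all genes did. The HFD effect was the larger for PPARG (0.46, SE 0.0637, adjusted p = 9.89e-06), PPARD (0.45, SE 0.0572, adjusted p = 3.31e-06), PPARGC1B (0.39, SE 0.102, adjusted p = 0.0052) and ANGPTL4 (0.34, SE 0.101, adjusted p = 0.0119). The HA-TRIM15 effect was the larger for PDK4 (-0.51, SE 0.0812, adjusted p = 4.49e-05) and PPARA (-0.20, SE 0.0551, adjusted p = 0.00641). RXRA differed by 0.15 (SE 0.0581, adjusted p = 0.0444), which failed in 10 of the 12 fits that left out a library, with values of 0.120 to 0.165, and with DESeq2 size factors (0.148, adjusted p = 0.0506). NR1H2 (0.10), NR1H3 (-0.16) and ESRRA (0.06) did not pass, except ESRRA without HA-TRIM15 replicate 1 (0.174, adjusted p = 0.0211). Mean TRIM15 was 0.633 CPM under HFD and 8.43 CPM with HA-TRIM15, which can include reads from the vector. The xenograft and culture libraries come from separate experiments, so setting, TRIM15 level and experiment cannot be told apart here.

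**Figure D3:**
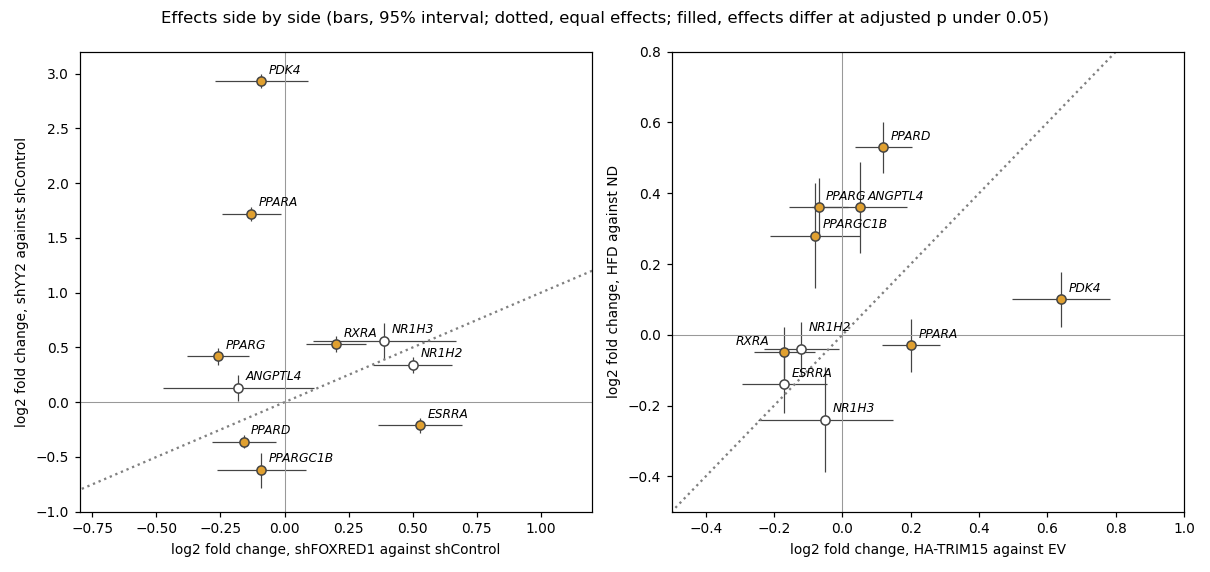
Log2 fold change of the 10 genes after shYY2 against that after shFOXRED1 (left) and under HFD against that with HA-TRIM15 (right), with bars showing the 95% interval and a dotted line of equal effects. Filled points differ between the 2 experiments at an adjusted p under 0.05, and PDK4 and PPARA lie farthest from the line on the left.

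The coregulators that these receptors recruit were followed as a list of 20, of which 19 were tested in each experiment. After shYY2, 10 rose and 7 fell, and 36.8% of all genes rose and 38.1% fell there, so the share that fell was near that of all genes. PPRC1, the third member of the PGC-1 family, fell 2.78-fold, from 110, 107 and 103 CPM to 39, 36.9 and 38.7 CPM (-1.48, adjusted p = 3.19e-14). PPRC1 and PPARGC1B therefore fell together in this experiment. PPARGC1A, the best known PGC-1 coactivator, rose there (0.44, adjusted p = 0.00142), a value named after it was seen. Under HFD 5 coregulators rose and 9 fell (25.6% and 23.9% of all genes), and PPARGC1A showed the largest change, a 1.79-fold fall from 16.9, 15.1 and 18.5 CPM to 9.43, 7.54 and 10.4 CPM (-0.84, adjusted p = 3.74e-06). The PGC-1 genes thus went opposite ways under HFD, with PPARGC1B higher and PPARGC1A lower. HA-TRIM15 raised 8 and lowered 1 (12.5% and 9.53% of all genes), led by SIRT1, a deacetylase that acts on PGC-1α (1.27-fold, adjusted p = 2.82e-05). shFOXRED1 also raised 8 and lowered 1 (16.8% and 19.7% of all genes), or 9 and 3 with the replicate block (20.1% and 23.1%), led by CREBBP, a histone acetyltransferase (1.41-fold, adjusted p = 4.78e-07). The median log2 fold change of the list was 0.18, -0.08, 0.10 and 0.11 after shYY2, HFD, HA-TRIM15 and shFOXRED1.

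Among 22 other nuclear receptors, 13 were tested in the shYY2 experiment, of which 10 rose and 1 fell (median 0.45), compared to 36.8% and 38.1% of all genes. In HFD xenografts 4 of 13 rose and 4 fell, not far from the 25.6% and 23.9% of all genes, and NR1D1, the circadian repressor REV-ERBα, rose 2.06-fold from 15.6, 13.9 and 15.9 CPM to 31, 28.7 and 32.7 CPM (1.05, adjusted p = 2.48e-09). HA-TRIM15 raised 3 of 12 and lowered 3 (12.5% and 9.53% of all genes), with RORA leading at 1.37-fold (adjusted p = 0.0169). shFOXRED1 raised 1 of 13, the retinoic acid receptor RARB (1.56-fold, adjusted p = 0.00319), and lowered 3, or raised 3 and lowered 4 with the replicate block, compared to 16.8% and 19.7% of all genes (20.1% and 23.1% with the block). The medians were -0.08, -0.08 and 0.07 under HFD, with HA-TRIM15 and after shFOXRED1.

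Textbook PPAR target genes other than ANGPTL4 and PDK4 were followed as a list of 40. After shYY2, 16 of 30 rose and 9 fell, with a median of 0.15, where 36.8% of all genes rose and 38.1% fell. PLIN5, a lipid droplet coat protein that tethers droplets to mitochondria, rose 12.3-fold, from 0.604, 0.472 and 0.454 CPM to 6.39, 6.54 and 6.06 CPM (3.62, adjusted p = 3.84e-11). Other changes, named after their values were seen, went both ways. The triglyceride lipase PNPLA2 rose from 80.7 to 241 CPM (1.58) and the fatty acid transporter SLC27A1 from 14.2 to 66.6 CPM (2.23). PLIN4 (2.87), FABP3 (2.10), ETFDH (1.67) and the scarce PLIN1 (0.236 to 0.987 CPM, 2.03) rose too. The fatty acid binding protein FABP5 fell from 27.6 to 5.44 CPM (-2.34) and the droplet coat gene PLIN2 from 145 to 90.5 CPM (-0.68). G0S2 (-1.33) and the scarce UCP3 (0.893 to 0.389 CPM, -1.19) fell too. The list holds PLIN1, which is also an adipocyte marker, and the adipocyte marker sum was 1.56 to 4.02 CPM after shYY2 compared to 0.555 to 0.768 CPM in the control, with ADIPOQ at 0 in all of these libraries. These libraries are cultures of 1 cell line, and the source of the higher marker sum was not tested. Under HFD 12 of 31 rose and 10 fell (median 0.04; 25.6% and 23.9% of all genes), and ACOT2, a mitochondrial acyl-CoA thioesterase, fell 1.88-fold from 13.6, 14.4 and 14.1 CPM to 8.16, 7.87 and 6.72 CPM. HA-TRIM15 raised 4 of 28 and lowered 0 (median 0.00), with a share of rises near the 12.5% of all genes and 9.53% of all genes lower, led by G0S2, an inhibitor of the lipase PNPLA2 (1.42-fold, adjusted p = 0.000171). After shFOXRED1, 5 of 29 rose and 7 fell (median -0.04; 6 and 8 with the replicate block), led by SLC27A1 (1.7-fold, adjusted p = 8.46e-06), and these shares lay near the 16.8% and 19.7% of all genes.

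LXR target genes gave the largest list median after shYY2, 0.56, with 10 of 18 higher and 4 lower, compared to 36.8% and 38.1% of all genes. MLXIPL, which encodes the carbohydrate sensor ChREBP, rose 10.2-fold from 2.09, 2.01 and 1.77 CPM to 21.5, 18 and 20.3 CPM (3.35, adjusted p = 5.97e-13). The cholesterol exporters ABCA1 (71.3 to 136 CPM, 0.93) and ABCG1 (11.2 to 43 CPM, 1.94) and the LDL receptor ligase MYLIP (42.9 to 82.7 CPM, 0.95) rose, while the lipogenic enzymes FASN (411 to 204 CPM, -1.01) and SCD (491 to 310 CPM, -0.66) fell, and SREBF1 did not pass (0.06, adjusted p = 0.111). These genes were named after their values were seen. Under HFD 6 of 17 rose and 4 fell (median 0.05; 25.6% and 23.9% of all genes), with SMPDL3A, a phosphodiesterase, 1.66-fold lower. HA-TRIM15 raised 2 of 17 and lowered 3 (median -0.07; 12.5% and 9.53% of all genes), among them SREBF1, the lipogenic transcription factor, from 75.7, 70.4 and 73 CPM to 63, 57.1 and 54.4 CPM (-0.32, adjusted p = 0.000522). After shFOXRED1, 6 of 17 rose and 1 fell (median 0.05; 16.8% and 19.7% of all genes), and CETP, the cholesteryl ester transfer protein, rose 1.8-fold (adjusted p = 0.00559).

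In both knockdowns more mitochondrial targets of PGC-1 and ERR fell than rose. After shYY2, 4 of 31 rose and 19 fell (median -0.23), where 36.8% of all genes rose and 38.1% fell, led by CYCS, cytochrome c, which fell 2.84-fold from 337, 328 and 368 CPM to 126, 119 and 118 CPM (-1.51, adjusted p = 3.82e-14). After shFOXRED1, 2 of 31 rose and 13 fell (median -0.16), where 16.8% of all genes rose and 19.7% fell, and ESRRA was higher there. With the replicate block 2 rose and 15 fell (20.1% and 23.1% of all genes). CPT1B, the muscle type carnitine palmitoyltransferase, showed the largest change and rose 2.12-fold (adjusted p = 0.00157). With HA-TRIM15, 0 of 31 rose and 7 fell (median -0.09; 12.5% and 9.53% of all genes), led by COX5B, a subunit of cytochrome c oxidase (1.27-fold lower, adjusted p = 0.00251). Under HFD, 10 of 31 rose and 5 fell (median 0.05; 25.6% and 23.9% of all genes), and UCP2, an inner membrane carrier, fell 1.8-fold from 30.6, 32.1 and 35.8 CPM to 17.4, 17.8 and 19.1 CPM.

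The genes that act beside PDK4 and ANGPTL4, the other pyruvate dehydrogenase kinases and phosphatases and the lipases and proprotein convertases on which ANGPTL4 bears, were followed as a list of 16, of which 11 were tested. After shYY2, 7 rose and 3 fell (median 0.37), compared to 36.8% and 38.1% of all genes. LIPG, endothelial lipase, fell 3.95-fold from 65.9, 65.6 and 65.7 CPM to 15.6, 17.4 and 16.9 CPM (-1.98, adjusted p = 1.43e-14). The kinases split, as seen after the values were known: PDK2 rose from 10.7 to 29.8 CPM (1.47) and PDK3 from 28.4 to 36.8 CPM (0.37), whereas the hypoxia-responsive PDK1 fell from 46.7 to 18 CPM (-1.38). Under HFD 5 rose and 2 fell (median 0.09; 25.6% and 23.9% of all genes), and LIPG rose 1.59-fold from 17.5, 17 and 15.9 CPM to 28.2, 26.5 and 26 CPM. HA-TRIM15 raised 1, the phosphatase PDP1 (1.15-fold, adjusted p = 0.0008), and lowered 1 (median 0.05), near the 12.5% and 9.53% of all genes. After shFOXRED1, 2 rose and 3 fell (median -0.03), compared to 16.8% and 19.7% of all genes, and the convertase PCSK5 fell 1.43-fold (adjusted p = 0.00513).

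The genes whose levels ran most like those of PDK4, PPARG and ANGPTL4 were found from log2 CPM centred on each experiment, over the 24 libraries and 14519 genes. For PDK4 they were ZNF277, KLHL24 and PPARA (Pearson r = 0.99 for each). For PPARG they were CYBRD1, LSM11 and TBC1D5 (0.93 each), and for ANGPTL4 CRYBG2 (0.88), HES4 (0.85) and GRK5 (0.85). The points share experiment and treatment, so these values describe the 4 contrasts more than the single libraries. For PDK4 they rest mainly on shYY2, where its log2 fold change was 2.93. It was 0.64 with HA-TRIM15, 0.10 under HFD and -0.09 after shFOXRED1.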

How the data were processed

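RNA was extracted from OE33 xenografts and cultures, poly(A) RNA was enriched, and NEBNext Ultra libraries were sequenced as paired reads. The authors deposited 4 tables of raw counts per gene, unnormalized. The submitters' processing notes list the builds hg38 and mm10 with no role. The aligner, counter and annotation are not given in the sources used here. Symbols matched 99.8% of identifiers. The 37 mitochondrial genes sum to 0 counts, so no mitochondrially encoded gene was examined.

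Counts were filtered (filterByExpr, minimum count 10, total 15), TMM scaled within each experiment and tested with the quasi-likelihood F test of edgeR 4.0.16 (R 4.3.3), two-sided, Benjamini-Hochberg adjusted over all genes tested and called below 0.05. CPM are TMM scaled, and the SE is the log2 fold change over the square root of F. Intervals are 95% normal intervals from the SE and rest on the spread of 3 libraries per group. They are narrower than the F test implies. For NR1H2 with HA-TRIM15 the interval was -0.22 to -0.01, while the F test gave an unadjusted p of 0.0573. Whether replicates were separate cultures or animals was not always stated, so p-values measure the spread between libraries, which may be technical. A single comparison of 3 against 3 cannot reach an exact permutation p below 0.1. Levels of different experiments were scaled separately. Replicates of a group differed by more than sampling noise (chi-square per gene 1.46 to 8), so each counted once.

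The replicate number was checked as a pairing. Over genes with a mean of at least 10 CPM, same-numbered deviations correlated at 0.211, 0.125 and 0.41 in the FOXRED1 experiment, all above 0.1, so blocked values are given there where they change a call or move a count; over all genes tested they were 0.032, 0.012 and 0.078, and the labels do not state a shared batch. In the other experiments at least 1 pair was below 0.1.

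Alternatives were DESeq2 size factors, no filter, the replicate block, DESeq2 1.42.0 and leaving out each library. On simulated counts with changes set in advance, most of the larger changes were recovered and the share of false calls exceeded the nominal one in every experiment. Far fewer genes were changed there than were called in the real experiments. The share of false calls depends on that number, so it cannot be carried over to these data. Calls close to the threshold are uncertain, among them PDK4 under HFD, NR1H3 after shFOXRED1 and the RXRA difference between HFD and HA-TRIM15. Each of these was lost in several fits that left out a library. The members and lists were chosen with earlier results of these data known. Named were all members, the manipulated genes, the gene of largest change in each list and experiment (adjusted p under 0.05, mean of at least 1 CPM, no overlap), and for ANGPTL4, PDK4 and PPARG the 3 genes most like each. One result under this rule is not reported here.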

Additional observations from a re-analysis of the deposited data

How the results depend on the processing

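After YY2 knockdown the counts of members higher (6) and lower (3) were the same with DESeq2 size factors, without a filter, with the replicate block (pairing by number), with DESeq2 and without any one library. Members lower under HFD numbered 2, but 1 with DESeq2 and 1 to 2 without one library; members higher numbered 5, and 4 to 5 without one library. With HA-TRIM15, members lower numbered 1, but 2 without a filter, 2 with the replicate block and 0 to 3 without one library; members higher numbered 2, and 2 to 3. After shFOXRED1, members lower numbered 1, but 2 without a filter, 3 with the replicate block, 2 with DESeq2 and 1 to 2 without one library; members higher numbered 4, and 2 to 4. The members that differed between effects numbered 7 in both comparisons, and 6 to 8 without one library. Outside the FOXRED1 experiment, the replicate block changed the calls of PPARD (0.112, adjusted p = 0.0484) and ESRRA (-0.177, adjusted p = 0.0148) with HA-TRIM15 and no other, and in that experiment those of PPARD and PPARA. Without one library, 4 differences changed sign, none of them past the threshold: with HA-TRIM15, NR1H3 ranged from -0.145 to 0.046 and ANGPTL4 from -0.028 to 0.104; the difference of the knockdown effects ranged from -0.009 to 0.316 for NR1H3, and that of the HFD and HA-TRIM15 effects from -0.003 to 0.174 for ESRRA. Of 680 single values under alternatives, 624 kept direction and side of the threshold, 37 lost and 15 gained a call; the causes were not tested. Depth limits NR1H3 and ANGPTL4 most, with as few as 119 and 86 counts.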

Other observations

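The 2 shControl cultures, nominally the same cells at 72 h, differed in the level of most genes of this module. The share of all genes that differed in this way was not computed. PPARA was at 139 CPM in the FOXRED1 shControl and 52.8 CPM in the YY2 shControl, a ratio of 2.63, PPARG at 126 and 66.3 CPM (1.9), RXRA at 184 and 118 CPM (1.55) and PPARGC1B at 30.8 and 20.4 CPM (1.51). PPARD was also higher in the FOXRED1 shControl, at 203 and 169 CPM. ANGPTL4 went the other way, at 8.62 and 20.1 CPM, and so did PDK4, at 27.5 and 41.4 CPM, and NR1H2, at 41.4 and 50 CPM. NR1H3 (10.6 CPM in both) and ESRRA (130 and 129 CPM) overlapped. Each set was scaled within its own experiment, and vector, culture and experiment cannot be told apart.

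PDK4 was 131 to 139 CPM in the ND xenografts and 15.4 to 41.7 CPM in the control cultures, and PPARGC1B was 12.9 to 14.3 CPM and 18.4 to 33.6 CPM. Neither pair of ranges overlapped. The same held for NR1H2 (69.5 to 73 CPM and 40 to 54.8 CPM) and NR1H3 (13 to 14.6 CPM and 8.09 to 12.8 CPM). It also held for ESRRA (155 to 173 CPM and 120 to 136 CPM) and ANGPTL4 (23.7 to 28.8 CPM and 8.2 to 22.9 CPM). The ranges of PPARA, PPARD, PPARG and RXRA overlapped. The share of all genes with such separation was not computed. Growth in mice and experiment cannot be told apart in these values.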
